A study of Homo sapiens with 3 samples.

Results

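Integrin chains, laminin and collagen IV chains and hemidesmosome genes were followed in CAL 27 cells, which derive from a poorly differentiated squamous carcinoma of the human tongue. A list of 38 genes was used, and a gene was taken when at least 1 probe set of the array was annotated to it alone. Such probe sets were found for 34 of the 38, with 88 probe sets between them, among 11963 genes that could be read in this way. The other 4 were ITGB6, whose probe sets were annotated to another gene as well, and LAMA3, COL17A1 and DAG1, which were not analysed here. The signal of 27 members passed the floor on at least 1 array, and these are called measured below.

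The cells had been stably transfected with an EGFP vector carrying nm23-H1, with the same kind of vector carrying nm23-H2, or with the empty vector, which makes EGFP alone. The design text calls the nm23-H1 and vector cells clones, and Nm23-H1 was made as a fusion with EGFP. RNA of each of the 3 transfectants was hybridised to 1 Affymetrix array (22283 probe sets), so no difference below has a replicate check and no p-value is given. With 1 transfected line per construct, the effect of a construct and the difference between separately selected lines cannot be told apart.

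Integrins are receptors of 1 alpha and 1 beta chain that bind matrix proteins outside the cell and the cytoskeleton inside it. Laminins, trimers of an alpha, a beta and a gamma chain, and collagen IV are the main networks of the basement membrane under an epithelium. In stratified epithelia such as that of the tongue, basal keratinocytes are fixed to this membrane by hemidesmosomes. There, the alpha6 and beta4 integrin chains and collagen XVII bind laminin-332 outside, with the tetraspanin CD151 beside the integrin in the membrane. Plectin and dystonin (the products of PLEC and DST) bind keratin filaments inside.

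Signals are given in scaled signal units, brought to a common trimmed mean across the 3 arrays. The floor was 28.3 units, the pooled median, and lower signals were set to it before log2 was taken, so a fold against such an array is a lower bound. The number of arrays limits the precision. As the one measurable error, the error of a single probe set was estimated from how far 2 probe sets for 1 gene disagreed. This probe error was an SD (log2) of 0.33 when nm23-H1 was set against vector, 0.35 when nm23-H2 was set against vector, and 0.38 between the nm23 arrays. A gene was counted at a log2 difference of at least 1, which is 2-fold.

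The transfected genes were read first as a check of the labels. NME1, which encodes Nm23-H1, gave 2379 units with nm23-H1, 1132 with nm23-H2 and 1519 with vector. A probe set shared by NME2, which encodes Nm23-H2, and the read-through NME1-NME2 gave 2323, 4845 and 2272 units in the same order. Each was thus highest on the array of its own construct. All 6 squamous epithelial markers with a probe set were above the floor on each array, whereas of 6 fibroblast markers 1, 1 and 0 were, of 5 endothelial markers 1, 0 and 1, and of 4 leukocyte markers 2, 0 and 1. The summed squamous signal was 25379 units with nm23-H1, 40110 with nm23-H2 and 29490 with vector, so it was highest with nm23-H2 and lowest with nm23-H1. Its part in the results below was not tested. These counts and sums used 1 probe set per gene, and by it the highest of the non-epithelial signals was 50.1 units. A further probe set of the fibroblast marker COL1A1 was above the floor on each array. It gave 168 units with nm23-H1, 152 with nm23-H2 and 123 with vector. In bulk RNA, fewer cells that make a transcript and less transcript per cell cannot be told apart.

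More members were brightest with nm23-H2, and more were dimmest with nm23-H1, than on either other array. Of the 27 measured members, 5 had their highest signal with nm23-H1, 15 with nm23-H2 and 7 with vector. Among all 8000 measured genes, 37.3%, 28.9% and 33.8% peaked on these arrays, in the same order. The lowest signal was that with nm23-H1 for 12 members, with nm23-H2 for 8 and with vector for 7, beside 27.3%, 45.9% and 26.9% of all measured genes. These ranks used scaled signals before the floor was applied. Signals below the floor therefore decided some of the lowest, such as LAMA2, with 20.3 units with nm23-H2 and 3.8 with vector.

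**Figure D1:**
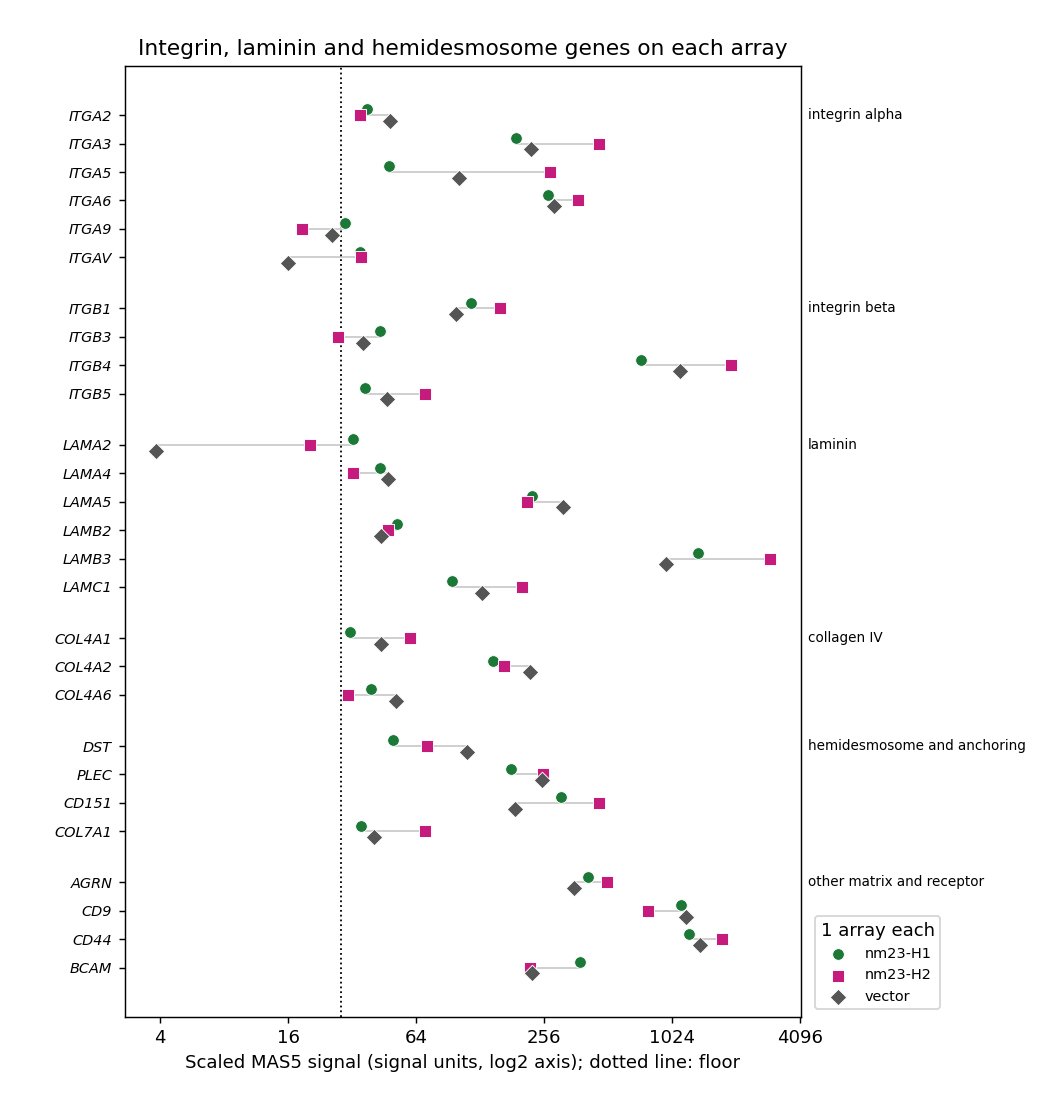
Scaled MAS5 signal (log2 axis, signal units) of the 27 measured members by role, with 1 point per array for nm23-H1, nm23-H2 and vector, offset vertically for visibility, a grey line over each gene's range, and a dotted line at the floor of 28.3 units. ITGA5 runs from 47.6 units with nm23-H1 to 272 with nm23-H2, and LAMB3 reaches 2951 units with nm23-H2.

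The comparison of nm23-H1 with vector bears on the titled question, the targets of Nm23-H1. ITGA5, the alpha chain of the fibronectin receptor, was 2.14-fold lower with nm23-H1, and DST was 2.25-fold lower. These were the 2 members of 27 that were at least 2-fold lower, against 1.71% of all measured genes. No member was at least 2-fold higher, against 2.16% of all measured genes. The median difference of the 27 was -0.18 (log2), with 10 above 0 and 17 below. Over all 8000 genes the median was 0.0, with 3962 above 0 and 3820 below.

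Where nm23-H2 was compared with vector, LAMB3 (3.08-fold), ITGA5 (2.67-fold), CD151 (2.47-fold) and ITGA3 (2.09-fold) were higher. These 4 of 27 stand beside 3.54% of all measured genes at least 2-fold higher. No member was at least 2-fold lower, where 3.62% of all measured genes were. The median difference of the 27 was 0.31, with 16 above 0, 9 below and 2 at 0 because both arrays were at the floor. Over all 8000 genes the median was -0.06, with 3200 above 0 and 4360 below. Both comparisons with vector share the vector array, so they are not independent of each other.

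Set directly against nm23-H2, the nm23-H1 array gave the widest differences in the group. ITGA5, ITGB4, ITGA3, LAMB3, LAMC1 and COL7A1 were at least 2-fold lower, 6 of 27, against 3.74% of all measured genes. No member was at least 2-fold higher, against 3.74% of all measured genes. The median difference was -0.44, with 10 members above 0 and 17 below, and quartiles of -0.94 and 0.13. Over all 8000 genes the median was 0.08, with 4494 above 0 and 3138 below, and quartiles of -0.23 and 0.43.

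**Figure D2:**
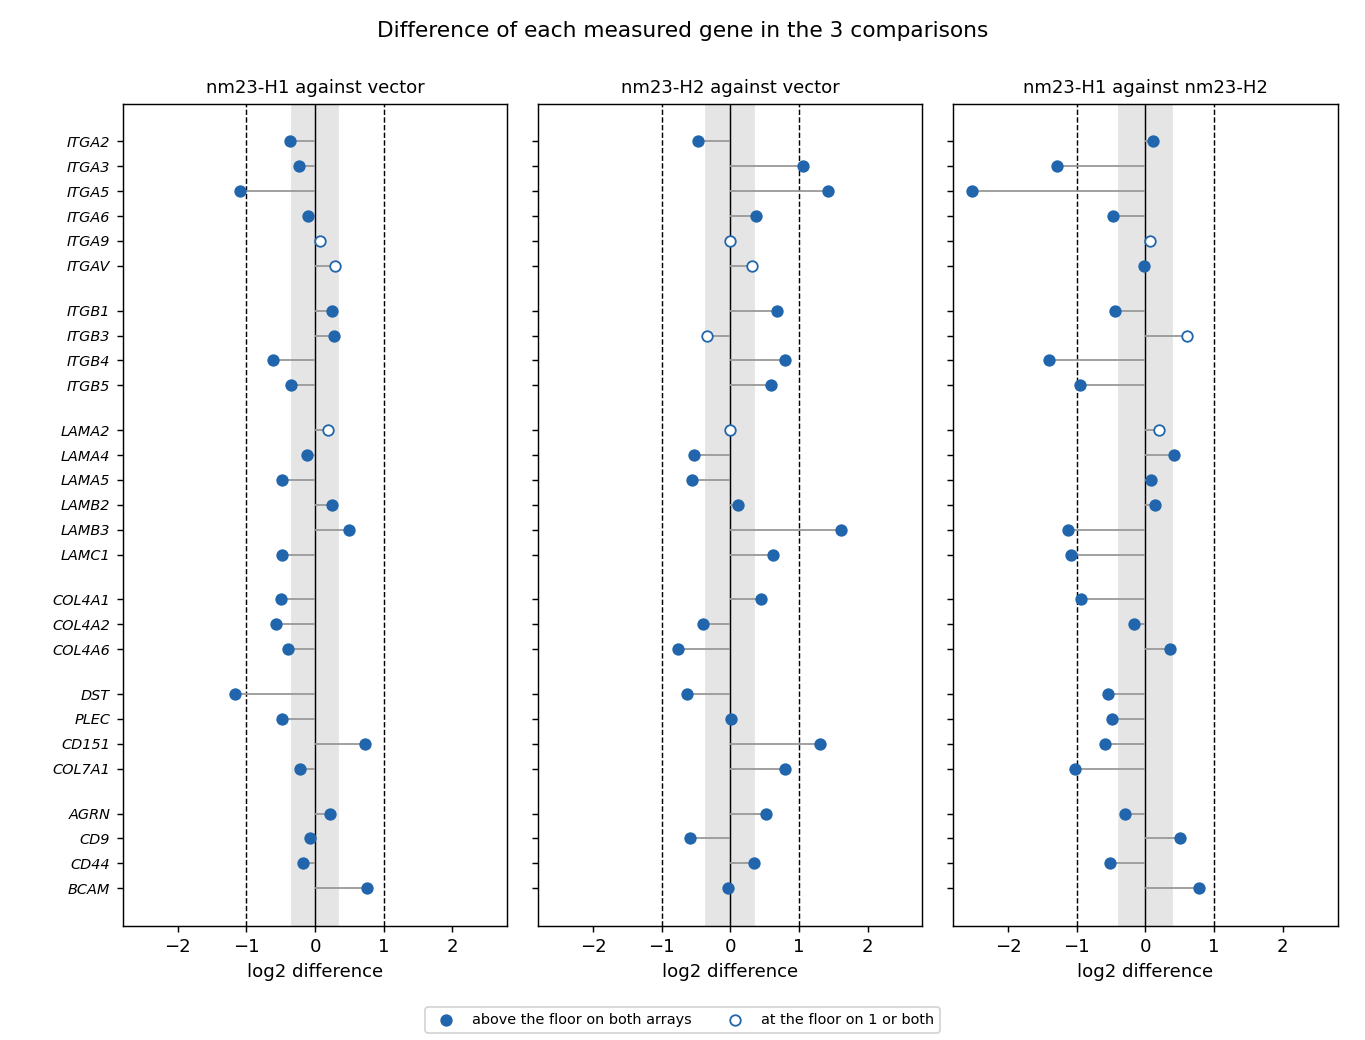
Log2 difference of each measured member in the 3 comparisons, with dashed lines at 1 and -1 (2-fold), a grey band of 1 SD of probe error to each side, and open points where 1 or both arrays were at the floor. For nm23-H1 against nm23-H2 the points run from -2.52 (ITGA5) to 0.78 (BCAM), and none passes 1.

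**Figure D3:**
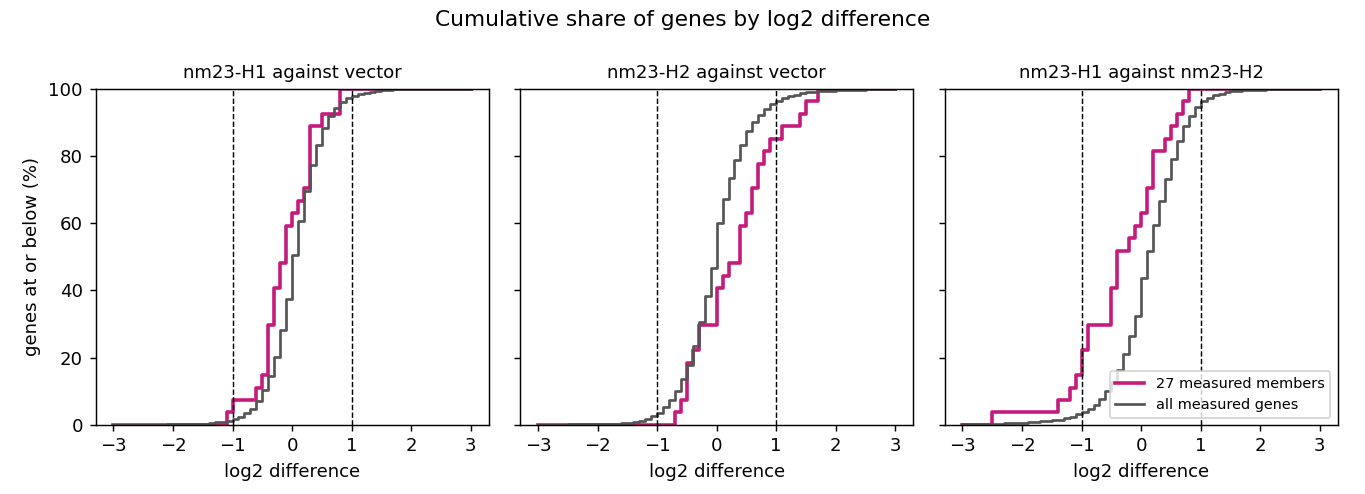
Cumulative share of genes (percent) at or below each log2 difference, for the 27 measured members and for all 8000 measured genes, in the 3 comparisons, with dashed lines at 1 and -1. For nm23-H2 against vector the members' curve lies to the right of that of all genes over most of the range (medians 0.31 and -0.06), and for nm23-H1 against nm23-H2 to the left (medians -0.44 and 0.08).

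Among the integrin alpha chains, the fibronectin receptor chain differed most. ITGA5 (chromosome 12, 54395261 to 54419266 in GRCh38.p14) gave 47.6 units with nm23-H1, 272 with nm23-H2 and 102 with vector. It was thus low with nm23-H1 and high with nm23-H2, with vector between them. Among all 8000 measured genes its difference between nm23-H1 and nm23-H2, 5.72-fold lower with nm23-H1, ranked 23 from the lowest. Against vector it ranked 97 from the lowest with nm23-H1 (-1.10 log2) and 102 from the highest with nm23-H2 (1.42). The nm23-H1 difference from vector was -0.99 as deposited, -0.62 with a floor at the 70th percentile and -0.89 with 16 units added. ITGA5 had 1 probe set, so its values could not be set against another probe set.

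ITGA3 (chromosome 17, 50056110 to 50090481) encodes the alpha chain of the alpha3beta1 laminin receptor, the usual partner of CD151. Its single probe set gave 188 units with nm23-H1, 461 with nm23-H2 and 221 with vector. The nm23-H2 array stood alone here, 2.09-fold above vector, while nm23-H1 differed from vector by -0.23 (log2), which is less than the probe error. The difference of nm23-H2 from vector was 0.98 when the arrays were scaled to a common median. Between the 2 nm23 arrays, ITGA3 was 2.45-fold lower with nm23-H1.

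By the probe sets used, ITGA2 and ITGA6 differed by less than 2-fold in all 3 comparisons. ITGA6, the laminin-binding partner of beta4 in hemidesmosomes, gave 266, 370 and 285 units with nm23-H1, nm23-H2 and vector by the probe set used, and 293, 215 and 228 units by another. The 2 probe sets thus went opposite ways in each comparison, with differences between the nm23 arrays of -0.48 and 0.45. For nm23-H1 against vector the first (-0.10) also turned sign with the scaling. ITGA2, a chain of a collagen receptor, gave 37.4 units with nm23-H1, 34.7 with nm23-H2 and 47.9 with vector. ITGAV, the alpha chain shared by several receptors of vitronectin and latent TGF-beta, gave 34.7 and 35.1 units with nm23-H1 and nm23-H2 and 15.9 units, below the floor, with vector. Its differences from vector, at least 1.22-fold and 1.24-fold, are therefore lower bounds, and were 1.12 and 1.14 (log2) with a floor at the 25th percentile. ITGA9 passed the floor only with nm23-H1 (29.7 units), and ITGA7 did not pass it on any array.

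Of the beta chains, ITGB4 (chromosome 17, 75721459 to 75757818), whose long tail binds plectin in hemidesmosomes, gave 728 units with nm23-H1, 1934 with nm23-H2 and 1115 with vector. It was 2.66-fold lower with nm23-H1 than with nm23-H2, and 1.73-fold higher with nm23-H2 than with vector. Another probe set gave 401, 650 and 530 units in the same order, and a further one 91.5, 103 and 101, while the fourth was below the floor on each array. The 3 above the floor had their lowest signal with nm23-H1 and their highest with nm23-H2, but the log2 differences between these arrays were -1.41, -0.70 and -0.17. By the mean over all its probe sets ITGB4 differed by -0.57, which is under 2-fold, and its one probe set ending in plain _at was the one below the floor.

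ITGB1, the partner of alpha2, alpha3, alpha5 and other chains, gave 116 units with nm23-H1, 158 with nm23-H2 and 98.5 with vector, and was 1.60-fold higher with nm23-H2 than with vector. ITGB5, a partner of alphaV, gave 36.6, 70.6 and 46.8 units in the same order, and was 1.93-fold lower with nm23-H1 than with nm23-H2. Both beta chains were thus brightest with nm23-H2 by the probe set used. However, a further ITGB5 probe set gave 34.4 units with nm23-H1 and 33.0 with nm23-H2, a difference of 0.06, and another gave 27.2 and 27.4, both below the floor, against 46.7 with vector. ITGB3, another partner of alphaV, went the other way by the probe set used. It gave 43.4 units with nm23-H1, 27.5 (below the floor) with nm23-H2 and 35.8 with vector, and its further probe sets were below the floor on each array. ITGB7 and ITGB8 were not above the floor on any array.

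**Figure D4:**
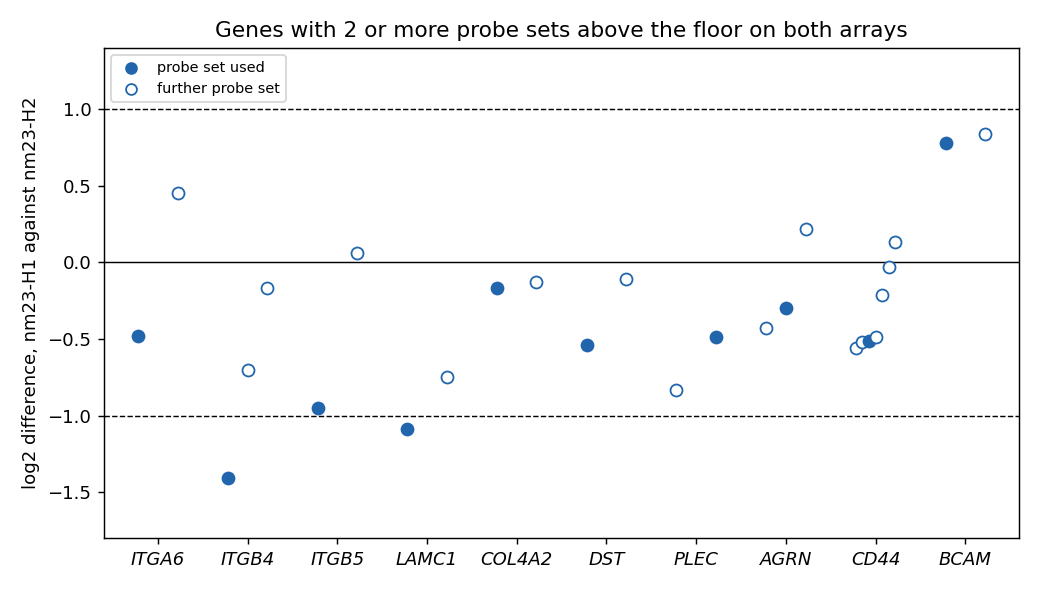
Log2 difference of nm23-H1 against nm23-H2 by each probe set (1 point each, filled for the one used and open for the others, with dashed lines at 1 and -1), for members with 2 or more such probe sets that passed the floor on each of the 2 arrays. The 3 ITGB4 points run from -1.41 to -0.17, the 2 BCAM points lie at 0.78 and 0.84, and the ITGA6 points lie on opposite sides of 0.

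Among 10 members with several probe sets above the floor on both nm23 arrays, all probe sets had the same sign for 6. The median gap between the lowest and the highest probe set was 0.54 (log2), and the widest was 1.24 for ITGB4. Against vector, the median gap over 9 members was 0.23 on the nm23-H1 array and 0.52 on the nm23-H2 array.

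The laminin chains fell into unlike patterns. LAMB3 (chromosome 1, 209614870 to 209652425), the beta chain found in laminin-332, gave 1349 units with nm23-H1, 2951 with nm23-H2 and 959 with vector. The nm23-H2 array was the brightest and vector the dimmest. The 3.08-fold difference between nm23-H2 and vector ranked 62 from the highest among the 8000 measured genes. With nm23-H1, LAMB3 was 1.41-fold above vector and 2.19-fold below nm23-H2, and the difference between the nm23 arrays was -0.98 (log2) after quantile normalization.

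LAMC1 (chromosome 1, 183023420 to 183145592), the gamma chain of most laminins other than laminin-332, gave 94.1 units with nm23-H1, 201 with nm23-H2 and 131 with vector. A further probe set gave 107, 179 and 126 units in the same order. Both probe sets were lowest with nm23-H1 and highest with nm23-H2, with differences between these arrays of -1.09 and -0.75. LAMC1 stayed at 2-fold in 5 of 10 alternatives. It fell short with vector left out or with probe sets ending in plain _at (-0.75 in both), with the mean of its probe sets (-0.92), with 16 units added (-0.98) and, narrowly, with a common median.

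LAMA5, the alpha chain of laminin-511 and laminin-521 in adult basement membranes, gave 225 units with nm23-H1, 213 with nm23-H2 and 313 with vector. Both nm23 arrays were thus below vector, by 1.39-fold and 1.47-fold, and both differences were larger than 1 SD of the probe error. With the values as deposited, however, the nm23-H2 difference was -0.23 (log2), under the probe error of 0.35. LAMB2, a beta chain, gave 51.9, 47.0 and 43.6 units in the same order, which differed by less than the probe error and turned sign with the scaling between the nm23 arrays. LAMA4, an alpha chain known from vessels and mesenchyme, gave 43.1, 32.4 and 46.9 units by the probe set used. LAMA2, the alpha chain of muscle laminin, passed the floor only with nm23-H1 (32.4 units). The further probe sets of LAMA4 and LAMA2 were below the floor on each array. LAMB1 was not above the floor on any array.

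Of the members that nm23-H1 and nm23-H2 separated by 2-fold or more, promoter sequences are shown for the 4 listed in the promoter table, ITGA5, LAMB3, LAMC1 and COL7A1, to show what the starts of these genes do and do not share. Each is the 250 bases before the annotated start, 5′ to 3′ on the gene's strand, from RefSeq (GRCh38.p14). They lie at chr12:54419267-54419516 (minus strand), chr1:209652426-209652675 (minus), chr1:183023170-183023419 (plus) and chr3:48595330-48595579 (minus). Capitals mark the GC box GGGCGG on either strand, the TATA box letters TATAAA on either strand, and GGAAATTCCC, a match to a short form of the NF-kB motif.
ITGA5: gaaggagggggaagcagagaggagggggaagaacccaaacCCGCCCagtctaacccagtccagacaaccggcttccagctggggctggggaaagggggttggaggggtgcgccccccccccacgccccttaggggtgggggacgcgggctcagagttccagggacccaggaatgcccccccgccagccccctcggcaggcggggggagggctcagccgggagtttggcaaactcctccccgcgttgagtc
LAMB3: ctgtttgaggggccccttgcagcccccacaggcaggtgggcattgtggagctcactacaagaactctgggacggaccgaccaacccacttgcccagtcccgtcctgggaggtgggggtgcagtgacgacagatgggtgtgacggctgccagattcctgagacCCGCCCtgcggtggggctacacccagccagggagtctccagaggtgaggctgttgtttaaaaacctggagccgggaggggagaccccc
LAMC1: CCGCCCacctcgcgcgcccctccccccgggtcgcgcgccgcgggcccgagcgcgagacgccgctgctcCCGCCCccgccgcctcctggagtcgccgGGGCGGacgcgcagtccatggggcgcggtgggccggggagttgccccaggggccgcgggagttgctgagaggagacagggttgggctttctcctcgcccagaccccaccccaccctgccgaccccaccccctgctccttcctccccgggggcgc
COL7A1: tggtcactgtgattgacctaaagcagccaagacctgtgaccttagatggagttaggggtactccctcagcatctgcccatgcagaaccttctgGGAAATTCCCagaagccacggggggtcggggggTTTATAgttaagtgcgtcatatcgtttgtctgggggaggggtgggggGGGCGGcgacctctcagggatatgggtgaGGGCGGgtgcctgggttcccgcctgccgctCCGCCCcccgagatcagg

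Each of these 4 promoters held a GC box, 1 in ITGA5, 1 in LAMB3, 3 in LAMC1 and 3 in COL7A1. On either strand, GC boxes were present in 18 of the 26 member promoters in the table and in 42.6% of all 35116 promoters. COL7A1 was the only one of the 26 with the NF-kB form, found in 1.73% of all promoters, and it also held the TATA box letters, present in 10.7% of all promoters. The AP-1 motif TGACTCA was on neither strand in any of the 26, while 4.20% of all promoters held it. The E-box CACGTG, found in 6.34% of all promoters, was in those of DST and ITGA6. These are matches of letters, not tested sites, and no promoter is described for ITGA3, ITGB4 or CD151.

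The 4 measured hemidesmosome and anchoring genes were all lower with nm23-H1 than with nm23-H2, with differences of -1.02 to -0.49 (log2). Of all 8000 measured genes, 3138 were lower in this comparison. Against vector, the directions of the 4 differed from member to member. DST (chromosome 6, 56457996 to 56954830) encodes dystonin, whose epithelial form links the hemidesmosome to keratin. It gave 49.6 units with nm23-H1, 72.1 with nm23-H2 and 111 with vector. Both nm23 arrays were below vector, by 2.25-fold and 1.55-fold. A further DST probe set, closer to the floor, gave 31.2, 33.7 and 34.5 units and a difference of -0.15 between nm23-H1 and vector. DST is a long gene with several forms made in different tissues, and which of them each probe set reads was not examined. The mean over all 8 DST probe sets, most of them at the floor, also gave -0.15. The difference of DST from vector was -0.75 with a floor at the 70th percentile and -0.96 with 16 units added.

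PLEC (chromosome 8), which encodes plectin, gave 179 units with nm23-H1, 252 with nm23-H2 and 250 with vector by the probe set used. Another probe set gave 171, 305 and 212 units. Both put nm23-H1 lowest (-0.48 and -0.31 against vector), while for nm23-H2 against vector they gave 0.01 and 0.53. The sign of the smaller one turned with the scaling.

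CD151 (chromosome 11, 832952 to 838831), a tetraspanin that binds laminin-binding integrins in the membrane, gave 307 units with nm23-H1, 461 with nm23-H2 and 187 with vector. Both nm23 arrays were above vector, by 1.64-fold and 2.47-fold. The nm23-H2 difference ranked 138 from the highest of 8000 genes. CD9, a tetraspanin that also associates with integrins, gave 1128, 791 and 1188 units, and with nm23-H2 it was 1.5-fold below vector. The 2 tetraspanins thus differed from vector in opposite directions on the nm23-H2 array.

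COL7A1 (chromosome 3, 48564073 to 48595329), the collagen of the anchoring fibrils beneath hemidesmosomes, gave 35.0 units with nm23-H1, 70.7 with nm23-H2 and 40.6 with vector. A further probe set gave 17.3 units with nm23-H1 and 16.9 with vector, both below the floor, and 87.7 with nm23-H2. By the first, COL7A1 was 2.02-fold lower with nm23-H1 than with nm23-H2 and 1.74-fold higher with nm23-H2 than with vector. By the second, the nm23-H1 array lay at least 3.09-fold below the nm23-H2 array, and nm23-H2 at least 3.09-fold above vector. Both probe sets put nm23-H2 highest, though the first gave under 2-fold between the nm23 arrays with a common median (-0.92), a floor at the 70th percentile (-0.40) or 16 units added in place of the floor (-0.77).

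The 3 measured collagen IV chains were all lower with nm23-H1 than with vector, with differences of -0.57 to -0.40 (log2). Of all 8000 measured genes, 3820 were lower in this comparison. COL4A2 gave 147 units with nm23-H1, 166 with nm23-H2 and 219 with vector by the probe set used. Its other probe set gave 55.1, 60.4 and 74.4 units. Both probe sets placed both nm23 arrays below vector, with log2 differences of -0.57 and -0.43 for nm23-H1 and of -0.40 and -0.30 for nm23-H2. COL4A1, whose product joins that of COL4A2 in the common collagen IV trimer, gave 31.1, 59.6 and 43.5 units. It was therefore low with nm23-H1 and high with nm23-H2, at 1.92-fold between them, just under the threshold. COL4A6 gave 39.1, 30.4 and 51.5 units in the same order, and COL4A5 was not above the floor on any array.

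COL4A1 and COL4A2 lie head to head on chromosome 13, with 126 bases between their annotated starts (chr13:110307158-110307283, GRCh38.p14, RefSeq). That stretch is shown because transcription of both genes starts from its ends. It is read on the plus strand, towards COL4A2, with the GC box in capitals.
COL4A1-COL4A2: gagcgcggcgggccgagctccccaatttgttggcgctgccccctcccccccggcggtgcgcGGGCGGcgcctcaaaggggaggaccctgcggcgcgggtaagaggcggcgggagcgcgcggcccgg

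Against vector, COL4A1 and COL4A2 differed by -0.49 and -0.57 with nm23-H1, and by 0.45 and -0.40 with nm23-H2. By the probe sets used, the pair was thus alike in direction on the nm23-H1 array and unlike on the nm23-H2 array, each by more than 1 SD of the probe error. For COL4A2 with nm23-H2 this did not hold throughout. Its other probe set gave -0.30 and the values as deposited -0.07, both under the probe error of 0.35. With 31.1 units on the nm23-H1 array, COL4A1 was however close to the floor there, and its other probe set was below the floor on each array.

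The 4 measured genes for other matrix proteins and receptors stayed within 2-fold by the probe sets used. BCAM, the Lutheran glycoprotein that binds laminin alpha5, gave 377 units with nm23-H1, 219 with nm23-H2 and 224 with vector, and its other probe set 69.7, 38.8 and 46.9 units. Both probe sets stood out with nm23-H1, at 1.69-fold and 1.49-fold above vector and 1.72-fold and 1.80-fold above nm23-H2. LAMA5, which encodes the alpha5 chain, was 1.39-fold below vector on the nm23-H1 array.

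CD44, a receptor of hyaluronan, gave 1228 units with nm23-H1, 1751 with nm23-H2 and 1387 with vector. Its 7 probe sets above the floor differed between nm23-H2 and vector by -0.14 to 0.52 (log2), and between nm23-H1 and vector by -0.25 to 0.03. AGRN, the heparan sulfate proteoglycan agrin, gave 409, 504 and 352 units in the same order, and was 1.43-fold above vector with nm23-H2 by the probe set used. Its 3 probe sets above the floor on all arrays did not share a sign. They differed by -0.02 to 0.68 between nm23-H2 and vector and by -0.43 to 0.22 between the nm23 arrays. The linker protein gene NID1 and the perlecan gene HSPG2, both basement membrane components, were not above the floor on any array.

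Related genes outside the list were taken from lists of other integrin chains, other basement membrane chains, integrin ligands, membrane partners, basal keratins and collagen-modifying enzymes. A further list, called linkers below, held genes for proteins that bind integrin tails or belong to their link to actin. Not all of the linkers tie integrins to actin. Of 77 related genes with a probe set, 57 were measured. With nm23-H1 against vector, 2 of the 57 were at least 2-fold higher and 1 lower, with a median of 0.01. With nm23-H2 against vector, 3 were higher and 3 lower, with a median of 0.15. Between nm23-H1 and nm23-H2, 3 were higher and 0 lower, with a median of 0.0. Each of these counts is by the probe sets used. As shares of the 57, these counts were 3.51% up and 1.75% down, 5.26% and 5.26%, and 5.26% and 0%. The 8000 measured genes gave 2.16% and 1.71%, 3.54% and 3.62%, and 3.74% and 3.74%, in the same order. Whether the related genes differ in this from genes in general was not tested.

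By the probe sets used, the related genes at least 2-fold higher than vector were 3 of the 11 measured linkers. Further probe sets of other related genes also passed 2-fold, where the ones used did not. With nm23-H1 these were of THBS1 (2.40-fold and 2.30-fold). With nm23-H2 they were of FBLN1 (at least 3.13-fold), CD47 (2.12-fold) and COL5A1 (2.05-fold). FERMT1, kindlin-1, which binds the tails of integrin beta chains, gave 244 units with nm23-H1, 476 with nm23-H2 and 111 with vector, or 2.20-fold and 4.29-fold above vector, and its other probe set gave 2.26-fold and 3.62-fold. PARVA, the actin-binding protein alpha-parvin, gave 118, 107 and 49.3 units, or 2.40-fold and 2.17-fold, by the probe set used. Neither further PARVA probe set showed this. They gave 24.2 (below the floor), 37.7 and 34.2 units, and 22.3 (below the floor), 30.5 and 31.0 units, in the same order. TLN1, talin, which switches integrins on from inside the cell, gave 61.8, 89.6 and 40.3 units, or 1.53-fold and 2.22-fold. By the probe sets used, all 3 were above vector on both nm23 arrays, whereas ITGA5 was below vector on the nm23-H1 array.

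Of the lower related genes, ITGAE, the alpha chain that pairs with beta7, gave 228 units with nm23-H1, 111 with nm23-H2 and 240 with vector. It was 2.17-fold below vector with nm23-H2 and 2.06-fold higher with nm23-H1 than with nm23-H2, and its partner ITGB7 was below the floor throughout. ITGA10, the alpha chain of a collagen receptor, was at least 2.14-fold lower with nm23-H2, which was at the floor. SPARC, a matrix glycoprotein that binds collagen IV, gave 53.2, 28.5 and 174 units with nm23-H1, nm23-H2 and vector. It was 3.26-fold and 6.08-fold lower than vector with nm23-H1 and nm23-H2. A further probe set of COL18A1, unlike the one used, was at least 2.62-fold and 2.37-fold lower than vector with nm23-H1 and nm23-H2. Against nm23-H2, nm23-H1 was 2.49-fold higher for KANK1, which binds talin, and at least 2.08-fold higher for ITGB3BP.

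Keratins 5 and 14, to which hemidesmosomes are tied, were brightest with nm23-H2. KRT5 gave 8543 units with nm23-H1, 11699 with nm23-H2 and 9288 with vector, and KRT14 gave 8932, 12889 and 9823 units. Between the nm23 arrays they differed by -0.45 and -0.53 (log2). KRT15, another basal keratin, went the other way, with 5001, 2637 and 4633 units and a difference of 0.92 between the nm23 arrays.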

How the data were processed

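Total RNA of CAL 27 transfectants was hybridised to 3 arrays, 1 per construct. The authors deposited intensity values on a linear scale, 1 per probe set, which MAS5 made per the submitters' processing notes. Its version and scaling target are not given in the sources used here, and detection calls were not used. Trimmed means (2nd to 98th percentile) were 85.9 with nm23-H1, 100.0 with nm23-H2 and 79.6 with vector before scaling, and the arrays were multiplied by 1.03, 0.881 and 1.11 to bring them to their geometric mean. Signals under the pooled median of 28.3 were set to it, and log2 was taken. This understates differences of dim genes. Of 22283 probe sets, 19071 had 1 gene symbol, 1043 several and 2169 none. Symbols came from the platform annotation, updated through gene IDs with the RefSeq table of GRCh38.p14. For each gene the probe set with the highest mean log2 signal was used, those ending in _x_at only where a gene had no other, and 8000 of 11963 genes passed the floor on at least 1 array. For the probe error, the brightest 2 probe sets of a gene above the floor on both arrays were compared, and the SD of their disagreement was divided by the square root of 2 (1758, 1641 and 1656 genes).

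The members, gene lists and settings were chosen with earlier results of these data known. Full values are given for members at least 2-fold different in any comparison and for the extremes of each role, and all other members are accounted for. Alternatives changed the scaling, the floor, the choice of probe set, the threshold or the arrays used, and choosing probe sets by the linear mean was added after seeing the data. The steps were tested on simulated data. Python 3.11.15, numpy 2.4.6, pandas 2.3.3 and matplotlib 3.10.9 were used.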

Additional observations from a re-analysis of the deposited data

How the results depend on the processing

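No paired analysis was possible because each group had 1 array. Counts of members at least 2-fold different moved by over 1.5 times under some settings. The number measured changed as well, from 27 members of 8000 genes in the main setting. With floors at the 25th and 70th percentiles it was 32 of 10691 and 18 of 5045. With probe sets ending in plain _at it was 19 of 4919. With 16 units added it was 26 of 7979, and with the mean of all probe sets 27 of 8124. For nm23-H1 against vector, the 2 lower members became 1 with the values as deposited (DST) or with the mean of all probe sets (ITGA5), and 0 with a 70th percentile floor or when 16 units were added instead of using a floor. The 0 higher became 3 with a 25th percentile floor and 2 at 1.5-fold. For nm23-H2 against vector, the 4 higher became 7 with the values as deposited and 7 with the floor at the 25th percentile, 2 with probe sets ending in plain _at and 9 at 1.5-fold, where 3 were lower. For nm23-H1 against nm23-H2, the 6 lower became 3 with probe sets ending in plain _at, and the 0 higher became 1 with a 25th percentile floor and 2 at 1.5-fold.

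The median difference of the members kept its sign in all 3 comparisons under each setting but 1, where it was 0.00. For nm23-H1 against vector (-0.18) it moved to -0.07 with the values as deposited, -0.11 with a 25th percentile floor and -0.10 with the mean of all probe sets. For nm23-H2 against vector (0.31) it moved to 0.50 with the values as deposited, 0.39 with the floor at the 70th percentile, 0.14 when all probe sets were averaged and 0.00 with probe sets ending in plain _at. For nm23-H1 against nm23-H2 (-0.44) it moved to -0.66 with the values as deposited, -0.34 with a common median, -0.24 with the floor at the 25th percentile, -0.07 when all probe sets were averaged and -0.17 with probe sets ending in plain _at. The values as deposited moved the median of all genes from -0.06 to 0.17 for nm23-H2 against vector and from 0.08 to -0.07 for nm23-H1 against nm23-H2. Relative to that median the members stood at 0.32 and -0.59, beside 0.37 and -0.52 with scaling. The split of all genes at least 2-fold higher and lower was then 630 to 108 and 172 to 494, against 283 to 290 and 299 to 299, and with a common median 242 to 383 and 405 to 252. For nm23-H1 against vector it was 212 to 92, against 173 to 137. Floors at the 25th and 70th percentiles gave 653 to 552 and 72 to 59 for nm23-H1 against vector, 621 to 979 and 192 to 112 for nm23-H2 against vector, and 1087 to 634 and 113 to 192 for nm23-H1 against nm23-H2. With probe sets ending in plain _at the 3 splits were 109 to 76, 163 to 168 and 178 to 169, and at 1.5-fold 685 to 602, 842 to 1142 and 1296 to 843. With the mean of all probe sets they were 129 to 94, 225 to 202 and 214 to 226. With 16 units added they were 181 to 151, 276 to 316 and 299 to 284.

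No gene past 2-fold changed sign. ITGA5, LAMB3 and CD151 for nm23-H2 against vector, and ITGA3 and ITGA5 for nm23-H1 against nm23-H2, were at least 2-fold under each setting that kept the threshold and read the gene. CD151 and ITGA3 had no probe set ending in plain _at, so that setting did not read them. ITGA5 for nm23-H1 against vector was at -0.99 with the values as deposited, -0.62 with a 70th percentile floor and -0.89 with 16 added, and DST was at -0.75 with that floor and -0.96 with 16 added. Except where the setting itself left out probe sets or counted dim ones, the cause of these shifts was not tested. Members near the floor (ITGAV, ITGA9, LAMA2, COL4A1) are limited by signal over background.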

Other observations

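Members that differed by 2-fold or more were also set beside the 10 nearest measured genes on each side along the chromosome, a comparison chosen after the members' values had been seen. For nm23-H1 against nm23-H2, the 20 neighbours had a median difference of -0.11 around ITGA3 (own difference -1.29), 0.38 around ITGA5 (-2.52), 0.05 around ITGB4 (-1.41), 0.24 around LAMB3 (-1.13), 0.02 around LAMC1 (-1.09) and 0.10 around COL7A1 (-1.02). Of the 20, the number at least 2-fold lower was 1 around ITGA3, 0 around ITGA5 and ITGB4, 1 around LAMB3 and LAMC1 and 0 around COL7A1. For nm23-H2 against vector the neighbours of CD151 had a median of 0.0 (own difference 1.30), and for nm23-H1 against vector those of DST had a median of -0.11 (own difference -1.17).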
